A study of Homo sapiens with 80 samples.

Results

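The nuclear-encoded subunits of the mitochondrial respiratory chain and ATP synthase were followed through the differentiation of human pluripotent stem cells into cardiomyocytes. Members were chosen by gene symbol alone. Of 43361 symbols found in both TPM tables, 109 began like a subunit of complex I (NDUFA, NDUFB, NDUFC, NDUFS or NDUFV and a number), complex II (SDHA to SDHD), complex III (UQCR), complex IV (COX4 to COX8) or ATP synthase (ATP5, here complex V). After 22 symbols of pseudogenes, read-through genes, antisense and divergent transcripts and extra copies were set aside, 87 members were left: 36 of complex I, 4 of complex II, 9 of complex III, 19 of complex IV and 19 of complex V. NDUFA4 and NDUFA4L2 were counted with complex IV, where NDUFA4 is now placed. A test was possible for 83 members in each experiment. COX7B2 reached at most 1.00 TPM, COX8C was listed at 0 in every well, and NDUFA3 and NDUFA6 were listed near 0 and had 9 and 3 further entries for other places.

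The multi-omic experiment held 56 poly(A) libraries of WTC11, a human induced pluripotent stem cell line. The 25 high purity libraries were wells of 1 differentiation at passage 52 and the 31 low purity libraries wells of 1 differentiation at passage 69, so purity, passage and differentiation cannot be told apart and p-values measure the spread between wells. Both were treated with CHIR99021, a GSK3 inhibitor that activates WNT signalling, on day 0, with IWP2, which blocks WNT secretion, on day 2, and with insulin-containing B27 medium from day 6. Purity was read on day 16, the end of the course, from staining of cells for cardiac troponin T in a flow cytometer. Each class had 4 wells on days 0, 2, 4 and 6. On days 8, 10, 13 and 16, high purity had 3, 1, 2 and 3 wells, and low purity had 4, 4, 4 and 3. The RNA-only experiment held 24 total RNA libraries, 1 for each of 4 stages (day 0, day 2 or 3, day 4 or 5, day 6 or 7) of 1 high and 1 low purity differentiation in H9, an embryonic stem cell line at passages 58 and 55, in IMR90-4, an induced line at passages 55 and 75, and in WTC11 at passages 81 and 69. Cells of H9 and IMR90-4 received IWP2 on day 3 and insulin on day 7.

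Complexes I to IV pass electrons from NADH and succinate to oxygen. Complexes I, III and IV pump protons across the inner mitochondrial membrane, and complex V uses the proton gradient to make ATP. Most subunits are encoded in the nucleus, while a small core is encoded by mitochondrial DNA. The adult heart depends on oxidative phosphorylation, whereas pluripotent cells lean on glycolysis, and the switch between them accompanies cardiomyocyte maturation. Some complex IV subunits come as isoform pairs: COX6A2 and COX7A1 are the heart and skeletal muscle forms of COX6A1 and COX7A2, and COX4I2 and NDUFA4L2 are inducible by low oxygen. COX6B2 is best known from testis. COX8A, grouped with the muscle isoforms by the selection rule, is the ubiquitous form of COX8 in humans.

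The start regions of 4 members are shown because they stand for the main patterns below: a muscle isoform and its ubiquitous partner, and a pair of subunits that differed strongly between the differentiations. Each run is the 250 bases before the RefSeq gene start on GRCh38.p14, written 5′ to 3′ on the gene's strand, with motif matches in capitals. COX6A2 (chr16:31428361-31428610, minus strand) held a MEF2 match 83 to 74 bases before the start, COX5B (chr2:97645812-97646061, plus strand) a GABPA match (CCGGAAGT) 37 to 30 bases before it, and SDHA (chr5:218070-218319, plus strand) 4 NRF1 matches. COX6A1 (chr12:120437863-120438112, plus strand) held none. The MEF2 letters searched for allow any base in the middle, and the match in COX6A2 has a G there. It is a match to this loose pattern and is not shown to be a MEF2 site.
COX6A2: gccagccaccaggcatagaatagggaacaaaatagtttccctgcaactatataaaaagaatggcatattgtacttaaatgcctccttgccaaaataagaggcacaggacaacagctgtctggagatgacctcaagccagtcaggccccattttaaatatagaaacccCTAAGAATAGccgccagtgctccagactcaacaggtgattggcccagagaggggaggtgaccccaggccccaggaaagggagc
COX6A1: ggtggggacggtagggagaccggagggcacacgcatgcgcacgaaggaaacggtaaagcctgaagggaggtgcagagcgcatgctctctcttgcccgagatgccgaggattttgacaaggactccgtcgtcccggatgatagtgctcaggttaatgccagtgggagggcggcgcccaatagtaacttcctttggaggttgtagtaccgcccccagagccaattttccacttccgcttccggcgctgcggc
COX5B: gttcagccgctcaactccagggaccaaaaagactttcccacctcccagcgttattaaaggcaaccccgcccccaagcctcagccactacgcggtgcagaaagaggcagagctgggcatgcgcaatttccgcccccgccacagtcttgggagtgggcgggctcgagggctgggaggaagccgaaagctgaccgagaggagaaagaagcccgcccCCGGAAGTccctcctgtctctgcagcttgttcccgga
SDHA: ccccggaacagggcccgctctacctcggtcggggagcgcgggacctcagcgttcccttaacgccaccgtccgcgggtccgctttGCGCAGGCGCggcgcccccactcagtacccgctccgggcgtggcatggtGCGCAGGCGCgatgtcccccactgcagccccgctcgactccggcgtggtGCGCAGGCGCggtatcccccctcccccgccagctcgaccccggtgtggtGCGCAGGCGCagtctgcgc

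Of the 87 members, 71 had a start region in the RefSeq table. NRF1 and GABPA (also called NRF2) are factors known to act at promoters of respiratory genes. On either strand, 15 of 71 members (21.1%) held the NRF1 letters, against 5.53% of all 27305 start regions of the same length and 7.65% of the 15843 of protein-coding genes. For GABPA the counts were 10 of 71 (14.1%), against 3.64% and 5.09%. YY1 letters were found in 1 member and ERR letters (TCAAGGTCA) in 0 of 71, against 0.359% and 0.319% of all start regions. The MEF2 letters, with any base allowed in the middle, were found in COX6A2 alone among the members, and in 2.42% of all start regions. NRF1 matches were carried by 3 of 7 members of complex III and 5 of 31 of complex I. Complexes II, IV and V had them in 2 of 3, 1 of 16 and 4 of 14 members, the 1 of complex IV being COX8C. These matches describe letters in a window and not bound sites.

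Levels were read in TPM, a measure of transcript abundance corrected for length and depth. To compare days and classes, TPM were multiplied by a factor per library (TMM scaling, 0.836 to 1.318), which centres the middle of all genes. A member was called where limma's p, adjusted by Benjamini-Hochberg over all 25664 genes fitted, was under 0.05, on the scale log2(scaled TPM + 1), and fold changes are high minus low or later minus earlier on that scale. In the multi-omic wells the most abundant member by median TPM was COX5B, a structural subunit of complex IV, at 916 TPM and 29.4% of its complex. The leading members of the other complexes were ATP5F1B, the catalytic beta subunit of ATP synthase (505 TPM), NDUFA13 (284 TPM), UQCRC2 (112 TPM) and SDHB (48.0 TPM).

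Summed over all members, scaled TPM fell from day 0 to days 4 and 6 in both differentiations and rose again by day 8 mainly in the high purity one. The high purity sum was 10176 ± 323 (SD, n = 4) on day 0, 7337 ± 374 (n = 4) on day 6, 13607 ± 1501 (n = 3) on day 8 and 12126 ± 792 (n = 3) on day 16. The low purity sum was 10038 ± 342 (n = 4), 6468 ± 351 (n = 4), 6983 ± 339 (n = 4) and 8030 ± 384 (n = 3) on the same days. The wells of the classes overlapped on day 0, and on day 8 every high purity well lay above every low purity well. As a share of all TPM, with no scaling, members made up 0.795% to 0.830% of high purity wells on day 6 and 1.23% to 1.31% on day 8, against 0.683% to 0.737% and 0.708% to 0.802% in the low purity wells. On day 16 these shares were 0.905% to 1.04% and 0.715% to 0.773%, still without overlap.

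**Figure D1:**
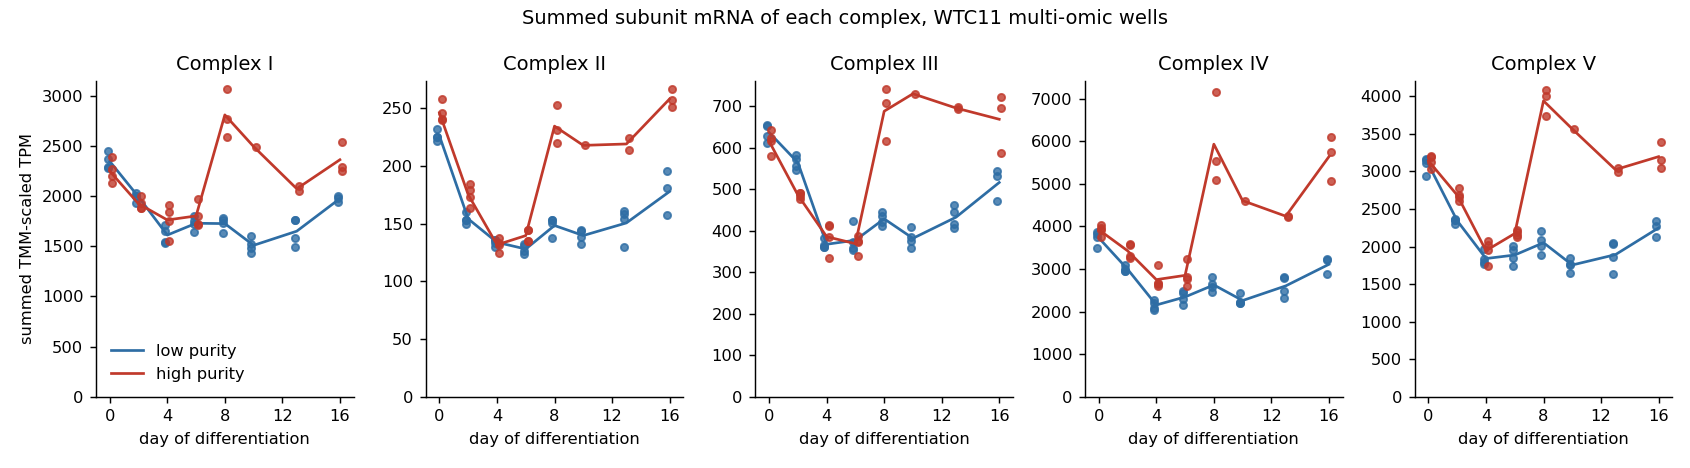
Summed TMM-scaled TPM of the members of each complex (vertical axes, from 0) against day of differentiation, with 1 point a well and lines through the group means, high purity in red and low purity in blue. In all 5 complexes the high purity sum rises between day 6 and day 8, while the low purity sum stays near its day 6 level.

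Complex IV had the largest day 8 step and complex I the smallest. In the high purity differentiation the summed scaled TPM of complex IV was 2.08 times as high on day 8 as on day 6, that of complex III 1.87, complex V 1.81, complex II 1.68 and complex I 1.56 times. Without scaling these ratios were 1.74, 1.57, 1.53, 1.41 and 1.31. In the low purity differentiation the scaled ratios lay between 1.00 (complex I) and 1.16 (complex II). No test was made of sums over members.

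The change from day 6 to day 8 was then tested gene by gene. In the high purity differentiation 68 of 83 members rose and 0 fell, where 14.5% of all genes tested rose and 30% were called in either direction. The median change was 0.72, against -0.020 over all genes. In the low purity differentiation 19 members rose and 3 fell (25.7% of all genes called), with a median of 0.12. A change of at least 2-fold was called in 19 members in high purity (5.58% of all genes) and 1 in low purity (3.31%). The test of the difference itself called 58 members with a larger change in the high purity differentiation and 1, NDUFA4L2, with a smaller one, where 16.9% of all genes were called. In 15 members this difference was at least 2-fold (4.14% of all genes). These day 8 against day 6 contrasts were added after the time course had been seen.

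**Figure D2:**
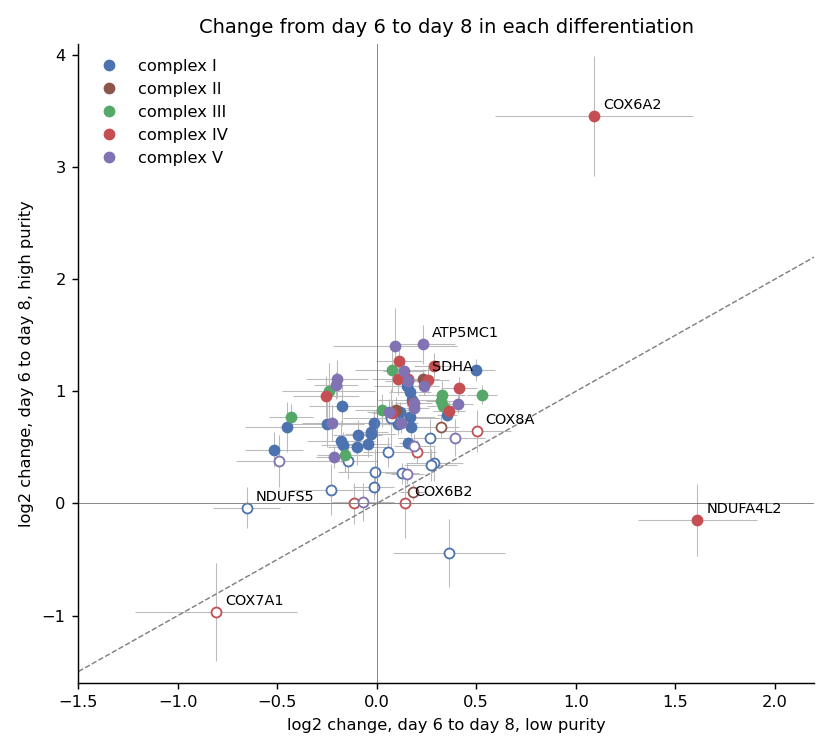
Log2 change of each of the 83 members from day 6 to day 8 in the low purity (horizontal) and high purity (vertical) differentiation, with bars for the standard error and the dashed line marking equal change. Filled points are the 59 members whose change differed between the differentiations at an adjusted p under 0.05, and nearly all of them lie above the line.

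By role, the rise in the high purity differentiation took in all 7 measured core subunits of complex I, which carry its flavin and iron-sulfur centres, and 19 of 27 accessory subunits. It also took in 3 of 4 members of complex II, 9 of 9 of complex III, 13 of 17 of complex IV and 17 of 19 of complex V. NDUFV1, the NADH-binding flavoprotein, measured 47.5, 47.5, 51.1 and 44.6 TPM on day 6 and 81.9, 85.8 and 75.2 TPM on day 8 in the high purity wells, while the low purity wells held 37.7 to 47.4 and 43.3 to 48.1 TPM. The high purity wells of the 2 days did not overlap and the low purity wells did. The changes of NDUFV1 were 0.99 and 0.17, and their difference of 0.83 passed the test.

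ATP5MC1, which encodes the c subunit of the ATP synthase rotor, showed the largest rise among called members of complex V. It held 24.1, 32.9, 35.0 and 31.9 TPM on day 6 and 66.8, 83.8 and 63.4 TPM on day 8 in the high purity wells, a log2 change of 1.42. The low purity wells held 25.1 to 38.1 TPM on day 6 and 32.1 to 38.8 TPM on day 8, and those ranges overlapped. Of the other c subunit genes, ATP5MC3 rose by 0.89 and ATP5MC2 by 0.27 in the high purity differentiation. All 4 members of the stalk rose (0.72 to 1.19), as did 4 of 5 members of the F1 head, with ATP5F1E at 0.01.

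In complex II, SDHA, the flavoprotein that oxidises succinate (chr5:218320-268746), rose by 1.11 in the high purity and 0.23 in the low purity differentiation. SDHB, its iron-sulfur partner, rose by 0.83 in the high purity wells and measured 0.10 in the low purity wells, where it was not called. SDHC, a membrane anchor, was the member of this complex that was not called in the high purity differentiation, at 0.10. In complex III the core proteins UQCRC1 and UQCRC2 rose by 0.91 and 0.97 in high purity and by 0.32 and 0.53 in low purity wells, and the Rieske protein UQCRFS1 by 0.87 and 0.34. In each of these 3 genes both rises were called, and so was the difference between them.

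The 15 members not called as rising in the high purity differentiation were NDUFA2, NDUFA7, NDUFA11, NDUFB6, NDUFB7, NDUFC2, NDUFS5, NDUFV3, SDHC, COX4I2, COX6B2, COX7A1, NDUFA4L2, ATP5F1E and ATP5MF. After day 8, 26 of the 68 members that had risen fell by day 16 and 5 rose further. The 68 were chosen by a rise into the same day 8 wells, which favours a later fall. No share of all genes chosen alike was computed, so no conclusion is drawn from that count. Over all members, 8 rose and 31 fell between day 8 and day 16 in the high purity differentiation (41.1% of all genes called), and 6 rose and 50 fell without scaling. In the low purity differentiation 23 rose and 2 fell (32.3% of all genes called), but 5 rose and 12 fell without scaling, and 14 in all were called without low purity well 2 of day 16. Changes of at least 2-fold were called in 5 members in high purity (11.4% of all genes) and 2 in low purity (6.39%).

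Between day 0 and day 4 far more members fell than rose. In the high purity differentiation 7 rose and 39 fell from day 0 to day 2, where 50.7% of all genes were called and 25.2% fell, and 4 rose and 38 fell from day 2 to day 4 (46.3% called, 22.8% fell). The low purity differentiation gave 5 and 43 (53.4% called, 26.4% fell), then 7 and 43 (49.7% called, 24% fell). In either direction 46 and 42 members were called at these steps in high purity and 48 and 50 in low purity, shares not far above those of all genes. From day 4 to day 6, 9 rose and 3 fell in high purity (33% of all genes called) and 12 and 3 in low purity (35.3%). The mean level of 33 of 83 members was lowest on day 4 and of 23 on day 6 in the high purity wells. The highest mean fell on day 8 for 27 members, on day 0 for 21 and on day 10, with its single well, for 17. In the low purity wells 49 members were highest on day 0.

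High and low purity wells differed in scattered members before day 8, in both directions. On day 0, 11 members were higher and 10 lower in high purity wells (14.6% of all genes called). On day 2 the counts were 27 and 17 (37.4%), on day 4 they were 17 and 11 (36.8%) and on day 6 they were 18 and 13 (39.9%). With a 2-fold change asked for as well, the counts were 1 (1.07% of all genes), 5 (5.32%), 0 (7.84%) and 1 (8.8%). The shares of members called on days 4 and 6 are near those of all genes, and the medians of the 83 lay between 0.002 and 0.11. The split depended on scaling, with 16 and 10 on day 0 and 19 and 19 on day 2 in unscaled TPM, and 7 and 10 on day 0 with the size factors of DESeq2 (RLE).

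**Figure D3:**
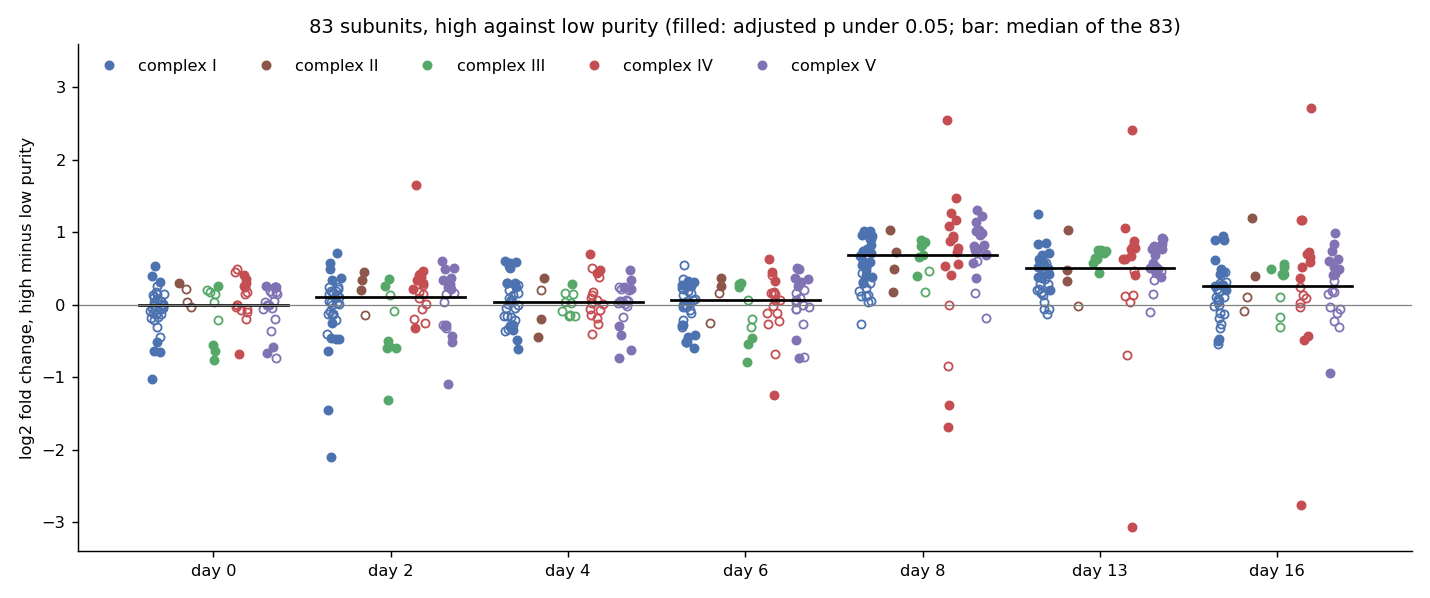
Log2 fold change, high minus low purity, of the 83 members on each tested day, coloured by complex, with filled points for an adjusted p under 0.05 and a bar at the median of the 83. The medians on days 0, 8, 13 and 16 are 0.002, 0.69, 0.51 and 0.26. Points far from the rest include COX6A2 above and COX6B2 below.

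NDUFS5, an accessory subunit of complex I, had the lowest value on day 2. It held 49.98, 28.5, 40.8 and 50.1 TPM in high purity and 153, 196, 222 and 192 TPM in low purity wells, a log2 fold change of -2.10 ± 0.17 (SE, adjusted p = 8.27e-14). The ranges were far apart. By day 8 they overlapped (34.2 to 48.1 against 33.7 to 50.6 TPM).

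NDUFS6 (-1.03 on day 0, -1.45 on day 2) and UQCRHL, a retrocopy of the complex III hinge protein gene (-0.76 and -1.31), were also lower in high purity wells on both days. ATP5PF, a stalk subunit whose gene overlaps GABPA on the genome, was lower on days 0, 2, 4 and 6 (-0.67, -1.10, -0.73 and -0.74) and higher on day 8 (0.57). In the other direction, COX5B was higher on each day tested, by 0.41 on day 0, 0.70 on day 4 and 0.63 on day 6. NDUFB5, a membrane arm subunit of complex I, was higher by 0.40 on day 0 and 0.71 on day 2. The largest early rise belonged to NDUFA4L2, described with the isoforms.

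On day 8 the picture changed: 62 of 83 members were higher in high purity wells and 2 were lower, where 21% of all genes were called higher and 44.1% in either direction. The median was 0.69, against -0.025 over all genes. By complex, 22 of 34 members of complex I, 4 of 4 of complex II, 7 of 9 of complex III, 13 of 17 of complex IV and 16 of 19 of complex V were higher, with medians of 0.54, 0.61, 0.68, 0.78 and 0.81. All 7 core subunits of complex I (median 0.82) and 15 of 27 accessory subunits (median 0.52) were among them. In 57 members every high purity well lay above every low purity well, as in 20.4% of all genes, and in 2 members the reverse held. The difference was at least 2-fold in 15 members (12.2% of all genes). Without scaling, 51 members were higher and 2 lower. When scaling was left out, the median of all genes stood at -0.18 and that of the members at 0.465.

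COX5B (chr2:97646062-97648383) was the most abundant of the members called on day 8. It held 1889, 2004 and 2176 TPM in high purity and 682, 934, 977 and 853 TPM in low purity wells. The lowest high purity well stood well above the highest low purity well. The log2 fold change was 1.47 ± 0.12 (SE, adjusted p = 1.75e-14).

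ATP5ME, a membrane subunit of ATP synthase, held 236, 256 and 242 TPM in high purity and 120, 108, 116 and 116 TPM in low purity wells (log2 fold change 1.31 ± 0.16, adjusted p = 4.74e-09). The groups were tight and did not overlap. COX4I1, the ubiquitous regulatory subunit of complex IV, held 538, 569 and 537 TPM against 255, 301, 295 and 295 TPM, a log2 fold change of 1.17, and likewise showed no overlap. COX6B1 (1.26), COX7C (1.09), NDUFV1 (1.01), ATP5F1B (1.03) and ATP5IF1, the inhibitor of ATP synthase (0.69), were also called.

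On day 13, with 2 high purity wells, 54 members were higher and 1 was lower (35.9% of all genes called, 16.9% higher), with a median of 0.51. NDUFS6 now stood higher, at 19.5 and 13.4 TPM in high purity and 6.53, 10.4, 5.48 and 6.97 TPM in low purity wells (1.25 ± 0.30, adjusted p = 0.000772). COX5A was at 114 and 114 TPM against 45.6 to 72.5 TPM (1.06 ± 0.16, adjusted p = 7.35e-07). In both genes the classes did not overlap. Unscaled TPM gave 39 higher and 1 lower, and 5 members differed at least 2-fold (10.8% of all genes).

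On day 16 the gap was smaller and more mixed: 38 members were higher and 6 lower, where 21% of all genes were called higher and 43% in either direction. The median was 0.26, and 5 members differed at least 2-fold (13.4% of all genes). Of the 62 members higher on day 8, 36 were higher on day 16 and 2 were lower. No share of all genes chosen alike on day 8 was computed, so no conclusion is drawn from that count. The call depended on scaling, since 22 members were higher and 12 lower in unscaled TPM, with a median of 0.050. Without scaling the median of all genes stood at -0.118. By complex, 12 of 34 members of complex I were higher, 2 of 4 of complex II, 6 of 9 of complex III, 9 of 17 of complex IV and 9 of 19 of complex V. In 38 members every high purity well lay above every low purity well, as in 23.6% of all genes.

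SDHA was among the members with the clearest difference on day 16. It held 90.4, 108 and 89.7 TPM in high purity and 43.6, 52.1 and 48.5 TPM in low purity wells, with no overlap. The log2 fold change was 1.20 ± 0.09 (SE, adjusted p = 5.32e-15), after 0.04 on day 0. Within the high purity differentiation SDHA rose by 1.60 from day 0 to day 16, the largest change of complex II. SDHB, whose protein binds SDHA directly, held 39.1 to 42.9 TPM in high purity and 42.7 to 55.8 TPM in low purity wells and was not called (-0.09). SDHA has near-identical pseudogene copies that can take or give reads, so its values are uncertain to that extent.

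COX7C, a small structural subunit of complex IV, changed sides over time. On day 0 it held 559, 541, 618 and 667 TPM in high purity and 900, 944, 920 and 899 TPM in low purity wells, a log2 fold change of -0.69 ± 0.17 (adjusted p = 0.00336). On day 16 it held 1000, 920 and 850 TPM against 508, 480 and 447 TPM, a log2 fold change of 1.17 ± 0.19 (adjusted p = 2.15e-06). On both days the classes did not overlap, in opposite directions.

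COX5B on day 16 held 1610, 2041 and 1327 TPM in high purity and 728, 901 and 933 TPM in low purity wells, again without overlap. NDUFB5 (0.95), ATP5IF1 (0.98), ATP5F1C of the F1 head (0.84) and COX4I1 (0.70) also remained higher. The 6 members lower on day 16 were COX6B2, ATP5MGL (-0.945), NDUFB2 (-0.50), COX7A2L (-0.49), NDUFA11 (-0.47) and COX7A2 (-0.43). COX7A2L, which joins complexes III and IV into supercomplexes, held 62.1, 66.0 and 74.5 TPM against 109, 113 and 110 TPM, so the classes were separate.

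Over the whole course, 27 members rose and 31 fell from day 0 to day 16 in the high purity differentiation (64.9% of all genes called). Unscaled TPM gave 19 and 43, and RLE 30 and 24. In the low purity differentiation 12 rose and 43 fell (64.5%). The difference between these changes was positive in 31 members and negative in 4 (34.8% of all genes called), but in 17 and 12 without scaling. Unscaled, the median of this difference was 0.007 over the members and -0.174 over all genes. Changes of at least 2-fold were called in 7 members in high purity (35.4% of all genes), 8 in low purity (34.1%) and 10 for the difference (13.4%). NDUFB5 had the largest change of complex I in the high purity wells, from 52.5, 48.7, 53.9 and 41.6 TPM on day 0 to 115, 129 and 120 TPM on day 16, a rise of 1.52. UQCRC2 had the largest of complex III, with a rise of 1.03. ATP5MC1 had the largest of complex V in the other direction, with a fall of 0.81 despite its day 8 rise.

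Among the muscle isoforms, COX6A2 (chr16:31427731-31428360) was the one that appeared during differentiation in the multi-omic wells. No read was found on day 0 in any of the 8 wells, and on days 2, 4 and 6 a single high purity well held 1.10, 2.01 and 0.686 TPM. On day 8 the high purity wells held 4.79, 13.3 and 18.3 TPM (7, 23 and 44 reads) and the low purity wells 5.30, 0, 2.69 and 0 TPM (6, 0, 4 and 0 reads). One low purity well stood above the lowest high purity well on that day. The log2 fold change was 2.55 ± 0.54 (SE, adjusted p = 0.000121).

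On day 10 the single high purity well held 38.3 TPM of COX6A2 against 3.98, 6.31, 5.17 and 0 TPM. On day 13 the values were 41.6 and 14.7 against 4.79, 9.91, 7.47 and 0.731 TPM, a log2 fold change of 2.41 ± 0.61 (adjusted p = 0.00143), or 1.69 (adjusted p = 0.104) without high purity well 2. On day 16 the high purity wells held 63.8, 42.8 and 42.2 TPM (108, 62 and 92 reads) and the low purity wells 5.84, 13.9 and 5.84 TPM (11, 23 and 7 reads), a log2 fold change of 2.71 ± 0.58 (adjusted p = 0.000122). From day 10 on, the classes did not overlap. With a pseudocount of 0.1 in place of 1, the adjusted p was 0.0979 on day 13 and 0.0571 on day 16.

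Against a floor of 3 reads over the 4 wells of day 0, pooled COX6A2 on day 16 was at least 114-fold higher in the high purity and at least 12.2-fold higher in the low purity differentiation. The rise from day 6 to day 8 differed between the differentiations (adjusted p = 0.0192). COX6A2 made up 18.1% ± 3.6 (SD, n = 3) of COX6A1 plus COX6A2 on day 16 in high purity and 4.20% ± 2.66 (n = 3) in low purity wells. Most COX6A mRNA was still COX6A1, at 225, 234 and 211 TPM against 206, 178 and 221 TPM.

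Set against troponin T mRNA (TNNT2), the difference in COX6A2 was narrower, and the classes overlapped on day 8 (1.93 to 5.22 against 0 to 3.99 TPM per 1000 TPM of TNNT2) and day 13 (7.63 and 18.7 against 0.928 to 8.96). Per 1000 TPM of TNNT2, COX6A2 stood on day 16 at 17.2, 12.0 and 14.7 TPM in high purity and at 7.07, 11.9 and 4.76 TPM in low purity. The lowest high purity well was just above the highest low purity well. TNNT2 itself was 2867 to 3702 TPM and 827 to 1227 TPM in these wells. In bulk RNA, fewer cells of a type and less RNA per cell cannot be told apart.

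**Figure D4:**
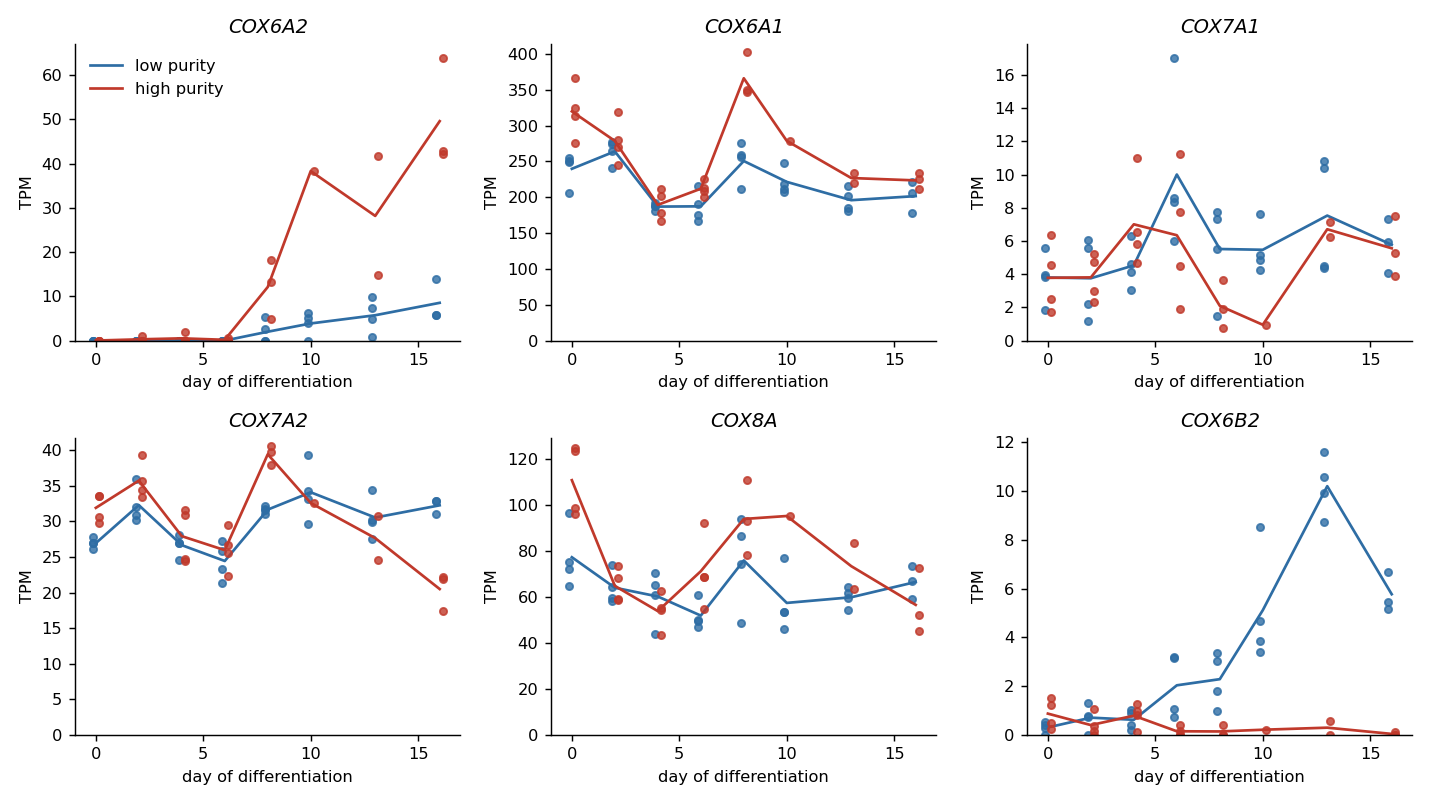
TPM of 6 complex IV isoform genes (vertical axes, from 0) against day of differentiation, with 1 point a well and lines through group means, high purity in red and low purity in blue. COX6A2 is at or near 0 until day 6 and reaches 42.2 to 63.8 TPM in the high purity wells of day 16. COX6B2 climbs in the low purity wells to 8.74 to 11.6 TPM on day 13.

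COX7A1 (chr19:36150922-36152447) was low throughout, between 0.748 and 17.1 TPM, and was called on no day. On day 8 it held 0.748, 1.89 and 3.64 TPM in high purity and 7.73, 5.54, 1.47 and 7.33 TPM in low purity wells, with overlap, a log2 fold change of -0.85 (adjusted p = 0.118). Leaving out high purity well 4 or low purity well 3 brought that to -1.27 (adjusted p = 0.033) and -1.25 (adjusted p = 0.0195). On day 16 the classes were alike, at 3.88, 5.28 and 7.52 against 4.07, 5.95 and 7.30 TPM. From day 8 to day 16 COX7A1 rose by 1.35 in the high purity differentiation. These values rest on 1 to 15 reads a well.

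COX7A2, the ubiquitous partner, was lower in high purity wells on day 16, at 17.4, 21.8 and 22.2 TPM against 31.0, 32.8 and 32.9 TPM. COX7A1 thus made up 21.0% ± 3.8 (SD, n = 3) of the pair in high purity and 15.03% ± 3.29 (n = 3) in low purity wells.

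COX8A (chr11:63974620-63976543) did not follow COX6A2. On day 8 it held 92.7, 111 and 78.0 TPM in high purity and 48.6, 86.4, 74.4 and 93.6 TPM in low purity wells, with overlap, a log2 fold change of 0.56 (adjusted p = 0.0134). That call was lost in unscaled TPM (0.33, adjusted p = 0.15), without high purity well 2 (0.47, adjusted p = 0.0779) and without low purity well 1 (0.37, adjusted p = 0.111). On day 16 it stood at 45.0, 51.9 and 72.5 TPM against 58.8, 66.9 and 73.5 TPM (-0.04). In the high purity differentiation COX8A fell by 0.76 from day 0 to day 16.

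COX6B2 (chr19:55349704-55354719) was the member that accumulated in the low purity wells. On day 16 it held 0, 0 and 0.109 TPM in high purity and 6.69, 5.46 and 5.15 TPM in low purity wells, which is 0, 0 and 1 reads against 53, 38 and 26. On day 13 the low purity wells held 8.74 to 11.6 TPM and the high purity wells 0 and 0.584 TPM. No high purity well overlapped the low purity wells on either day.

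The pooled level of COX6B2 on day 16 was 132 times as high in low purity wells (95% interval 23.2 to 5239, counting error only). The limma log2 fold changes on days 6, 8, 13 and 16 were -1.25, -1.39, -3.07 and -2.77, all called. COX6B2 still made up at most 4.02% of COX6B1 plus COX6B2 in a low purity well of day 13. COX6B1 itself was higher in high purity wells on day 16, at 541, 489 and 429 against 308, 342 and 378 TPM (0.72).

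NDUFA4L2 was higher in high purity wells on day 2 and lower on day 8. On day 2 it held 12.4, 19.1, 15.3 and 13.1 TPM against 4.82, 5.87, 3.83 and 2.85 TPM, without overlap (1.66 ± 0.30, adjusted p = 1.38e-05). On day 8 it held 1.28, 0.361 and 0.260 TPM against 6.91, 3.70, 4.00 and 4.20 TPM, again without overlap (-1.69 ± 0.32, adjusted p = 2.51e-05). It had risen by 1.61 from day 6 to day 8 in the low purity differentiation. The summed TPM of 8 hypoxia response genes was 3254 to 4256 in high purity and 741 to 975 in low purity wells on day 2, and 1914 to 2342 against 783 to 1093 on day 8. On day 0, 7 of the 8 were already called higher in high purity wells (475.7 to 614 against 168 to 192 TPM in sum), while NDUFA4L2, with 0 to 8 reads a well, was not called (0.15). NDUFA4L2 differed in the same direction as this list on day 2 and in the opposite one on day 8. COX4I2 did not exceed 2.36 TPM. On day 16 it held 1.22, 1.14 and 0.379 against 0.220, 0.500 and 0.345 TPM, with overlap, from 5, 4 and 2 against 1, 2 and 1 reads (0.595 by limma, adjusted p = 0.0114).

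Other mitochondrial genes were counted by lists of known function. On day 8, 16 of 16 genes of the TCA cycle and pyruvate dehydrogenase were higher in high purity wells (median 0.79), as were 11 of 12 electron and adenine nucleotide carriers (median 0.76). Over all genes, 21% were called higher on that day and 44.1% in either direction. Of 41 assembly factors for the complexes, 20 were higher and 3 lower (median 0.33), and of 14 regulators of mitochondrial biogenesis 6 were higher and 2 lower (median 0.12). From day 6 to day 8 in the high purity differentiation, 16 of 16, 12 of 12 and 17 of 41 genes rose, and 4 of the 14 regulators rose while 5 fell. Over all genes, 14.5% rose and 30% were called in either direction. On day 16, when 21% of all genes were called higher, the TCA list had 15 of 16 higher, with DLAT of pyruvate dehydrogenase at 1.08. The carriers had 9 of 12 higher, with SLC25A4, the heart ADP/ATP carrier, at 1.70. Of the 14 regulators, PPARGC1A (1.42) and ESRRG (1.65) were higher on day 16. These 2 were picked with their values known and do not stand for the list, whose day 16 counts are not given here.

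Marker lists of other cell types differed as well, in both directions. Over all genes on day 8, 21% were called higher and 44.1% in either direction. The summed TPM of 14 cardiomyocyte genes was 13995 to 16590 in high purity and 4998 to 8008 in low purity wells on day 8, and 10 of 14 were higher and none lower (median 1.59). The summed TPM of 8 fibroblast and stromal genes was 558 to 660 against 4832 to 5823 on day 8, and 7 of 8 were lower. That list already differed on day 6 (865 to 1164 against 3125 to 4848), when the median difference of the members was 0.058. Of 6 epicardial genes 4 were lower on day 8, and all 6 proliferation genes were lower. Of 7 endothelial genes 5 were higher and 2 lower on day 8 (144 to 186 against 189.9 to 218 TPM in sum), and of 6 endoderm genes 4 were higher and 1 lower (1017 to 1851 against 264 to 466.2 TPM). On day 6 those counts were 5 and 1, and 4 and 1 (39.9% of all genes called), with CD34 at 3.82 and SOX17 at 2.60. Of 10 skeletal muscle genes, 4 reached 1 TPM in high purity wells on day 8. The part of cell composition in the members' difference was not tested.

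Transcripts of mitochondrial DNA could not be set beside the members, since none of 26 names searched for its mRNAs was found. RNR2, the mitochondrial 16S ribosomal RNA, took 11.3% to 17.1% of TPM in high purity wells on day 6, 17.0% to 24.7% on day 8 and 26.0% to 33.3% on day 16, against 16.5% to 18.5%, 17.1% to 20.8% and 22.4% to 23.7% in low purity wells. Outside the mitochondrial transcripts, RN7SK took 1.65% to 2.09% of TPM on day 0 and 10.5% to 11.7% on day 8 in high purity wells. In low purity wells it took 1.61% to 2.03% and 7.87% to 9.78%. On day 13 its share was 15.1% to 16.4% in high purity and 7.38% to 9.81% in low purity wells. The shares of RNR2 and RN7SK moved with day and class, and TPM of every other gene are set relative to a total that includes them.

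The RNA-only experiment reached day 6 or 7 and so ended before the day 8 step. Its libraries were made with another kit, so levels were compared only within it. Over 3 lines, edgeR's quasi-likelihood test called 0 of 83 members between high and low purity at each of the 4 stages, and 0% of all 23848 genes. At an unadjusted p under 0.05 there were 0, 4, 18 and 12 members, and 354, 1896, 1798 and 2876 genes of all. DESeq2 called 1 member at stage 3 (NDUFB3, -0.41) and 1 at stage 4 (NDUFB2, -0.57), both lower in high purity. The share of all genes called by DESeq2 was not counted, so no conclusion is drawn from these calls. The medians of the members were -0.057, -0.076, -0.15 and -0.086.

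The median difference of the members was below 0 in all 3 lines at stages 1 and 3, and its sign differed between lines at stages 2 and 4. At stage 3, 69 of 83 members were lower in high purity in IMR90-4, 74 in WTC11 and 46 in H9, and 37 were lower in all 3 lines, where 13.8% of all genes were. At stage 4 the counts were 71 in IMR90-4, 48 in WTC11 and 39 in H9, and 24 in all 3 lines (16.3% of all genes). WTC11 gave a median difference of -0.24 at stages 2 and 3 and -0.025 at stage 4. With 1 library a class and stage in each line, differences within a line were not tested, and edgeR's test over the 3 lines called no member.

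**Figure D5:**
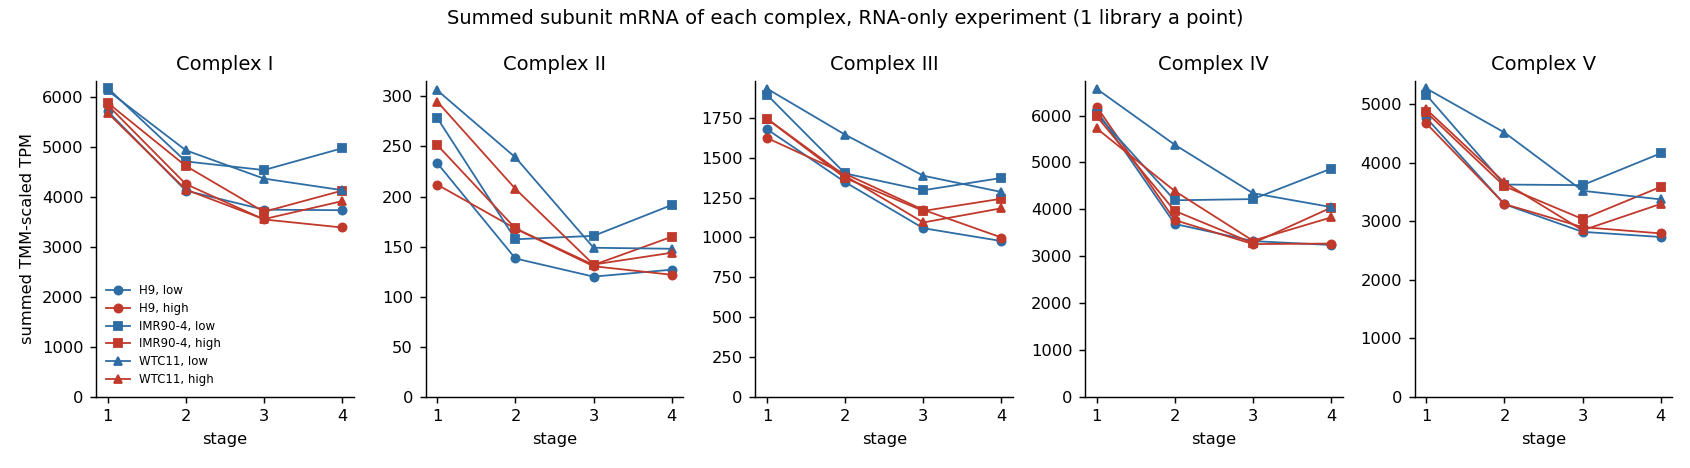
Summed TMM-scaled TPM of the members of each complex (vertical axes, from 0) against stage in the RNA-only experiment, 1 library a point, with marker shape for the line and colour for the class. In each complex every differentiation has its highest sum at stage 1, and high and low purity libraries overlap at every stage except in complex I at stage 3, where the high purity sums (3545 to 3699) lie below the low purity ones (3741 to 4532).

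In the RNA-only experiment too, members were mostly lower after stage 1. Against stage 1, 56 of 83 members were lower and 3 higher at stage 2 (50.9% of all genes called, 25.6% lower), 67 and 2 at stage 3 (62.4% called, 30.6% lower), and 64 and 2 at stage 4 (65.3% called, 31% lower). The medians were -0.42, -0.60 and -0.50, and 9 members changed at least 2-fold at stage 4 (39.5% of all genes). The largest fall at stage 4 was that of ATP5MC1, with a drop from between 125 and 189.7 TPM at stage 1 to between 36.4 and 65.7 TPM at stage 4, a log2 change of -1.67 (adjusted p = 5.65e-10) without overlap. NDUFS6 fell by 1.39.

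The 2 members that were higher at stage 4 than at stage 1 were NDUFB5 (0.38, adjusted p = 0.00552) and COX6A2 (3.06, adjusted p = 0.00201). By the same edgeR test COX6A2 was lower at stage 2 than at stage 1 (-3.63, adjusted p = 0.0213), so it was not absent from all stage 1 libraries. COX6A2 held 3.71 TPM in H9, 15.4 TPM in IMR90-4 and 1.47 TPM in WTC11 in the high purity libraries of stage 4, and 0, 4.67 and 0.776 TPM in the low purity libraries. In each line the high purity library was the higher one, but the log2 difference of 2.15 was not called (adjusted p = 0.373). COX7A1 was between 0.646 and 8.41 TPM at all stages and was called higher at stage 2 than at stage 1 (1.28, adjusted p = 0.00123). COX8A held 1140.0 to 1329.6 TPM at stage 1 and 535 to 806 TPM at stage 4.

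Reads ranged from 6579715 to 18143597 a library in the multi-omic and from 17990882 to 40357968 in the RNA-only experiment. Many members are short, with a median length of 1188 bases against 2822 for all genes fitted, and the part of length in the differences was not tested. All 87 members have a RefSeq position, and 35 overlap another RefSeq gene, 20 of them a protein-coding one, so reads of such pairs can be shared. Values of ATP5F1E, which overlaps a read-through gene, are uncertain for that reason, and those of the retrocopies UQCRHL and ATP5MGL because each resembles its parent gene.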

How the data were processed

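RNA was measured in 80 libraries of hPSC cardiomyocyte differentiation: 56 stranded poly(A) libraries (multi-omic experiment) and 24 stranded total RNA libraries (RNA-only experiment), per the labels' protocols. The submitters' processing notes name STAR 2.5.3a, featureCounts 2.0.3 and hg38, with no role or order. The authors deposited read counts per gene, with no normalization, and TPM per gene for each experiment; how TPM were computed is not given in the sources used here. Of the 56 multi-omic count columns, 0 matched the TPM column of the same name and 50 equalled one of another name, so TPM were used there in place of the count test first set. Which names are right was not settled by the sources. Of 55 columns with another of their group, the nearest column was of the same group for 54 in TPM and 28 in counts, and every multi-omic day and class here rests on the TPM names. Reads behind the TPM were recovered with gene lengths from the RNA-only tables (100.0% of values whole within 0.05 of a read, 37194 genes, the others at most 0.247% of TPM). A count test on these reads is among the alternatives.

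The 25664 genes that reached 1 TPM in 3 or more libraries were fitted with limma 3.58.1 in R 4.3.3 on log2(TPM x TMM factor + 1), with 16 group means and 40 residual degrees of freedom. RNA-only counts of 23848 genes were fitted with the quasi-likelihood test of edgeR 4.0.16 with TMM, with line by stage means and 4 class terms (8 residual degrees of freedom). The stage test had the 6 differentiations as a block. P-values were adjusted over all genes (Benjamini-Hochberg). Day 10, with 1 high purity well, was not tested. The code was tested on simulated data. Wells share a number across classes, but of 24 same-numbered pairs 3 had correlated deviations over 0.1 (range -0.127 to 0.123), so numbers were not taken as pairs.

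Genes named in the text are the isoform genes, the 3 members with the largest called change in each direction on each day, the most abundant and most changed member of each complex, and others given as counts or examples of a role, which were chosen with their values known. Members, gene lists and rules were chosen with earlier results of these data known. Alternatives were the pseudocount, the filter, other scaling (DESeq2 1.42.0 size factors as RLE, or none), DESeq2 on counts, each replicate left out, the well block and a further 2-fold threshold. Intervals and floors cover counting error only. Start regions are RefSeq's, searched by exact letters on both strands, with any base allowed at the open positions of the NRF1 and MEF2 letters.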

Additional observations from a re-analysis of the deposited data

Results flagged for a closer look

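In 83 groups of 4 or more wells, 6 held a well far from the others by Dixon's ratio, and chance gives about 1 in 20 groups. For COX6A2 these were high purity well 4 on day 2 (1.098 TPM), on day 4 (2.013 TPM) and on day 6 (0.686 TPM), where the other high purity wells were listed at 0. These values rest on 2, 3 and 1 reads. With the other wells at 0, any read gives the largest possible ratio, so the chance rate does not apply to these groups. Summed scaled TPM of complex IV was high in high purity well 2 of day 4 (3085, next 2668) and in low purity well 3 of day 10 (2429, next 2227). Summed scaled TPM of complex II was low in low purity well 1 of day 8 (137.2, next 150.5).

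By the interaction contrast of limma, the change from day 0 to day 16 differed between the differentiations in 35 members (34.8% of all genes). The median difference of the members over those days was 0.287 with TMM scaling and 0.007 without. Over all genes it was 0.000 with TMM scaling and -0.174 without. The change from day 6 to day 8 differed in 59 members (16.9% of all genes). Of those 59, 58 rose more in the high purity differentiation.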

How the results depend on the processing

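Of 266 alternative counts of members called, 247 stayed within 1.5 times of the reported one, and 19 did not. Asking also for a 2-fold change left 1, 5, 0, 1, 15, 5 and 5 members on days 0, 2, 4, 6, 8, 13 and 16. For the change from day 0 to 16 it left 7 in high and 8 in low purity, with 10 for their difference. From day 8 to 16 it left 5 and 2, from day 6 to 8 it left 19 and 1, with 15 for the difference, and 9 at RNA-only stage 4 against stage 1. DESeq2 called 1 member at RNA-only stage 3 and 1 at stage 4, with no share of all genes counted. Leaving out single wells gave 15 to 19 members on day 0, 35 to 40 on day 2, 23 to 29 on day 4, 25 to 31 on day 6, 59 to 66 on day 8, 41 to 56 on day 13 and 37 to 44 on day 16. It gave 51 to 58 (high) and 48 to 52 (low) from day 0 to 16, 31 to 39 and 14 to 28 from day 8 to 16, 62 to 67 and 16 to 24 from day 6 to 8, and 27 to 35 and 51 to 59 for the differences over days 0 to 16 and 6 to 8. Leaving out single lines gave 0 to 0 at all 4 RNA-only stages and 49 to 63 for stage 4 against stage 1. With the well number as replicate block the counts were 21, 43, 29, 31, 64, 54 and 44 by day, so the block changed none by over 1.5 times; without the line block 0 members were called at any RNA-only stage.

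Of 343 alternatives for single values, 322 kept their side of the threshold or stayed within the replicate spread. A further 10 passed it newly, 6 lost it and 5 moved. None turned direction where the main or the alternative value was called. A change of sign with neither called was counted among those that kept their side. The 5 that moved were log2 ratios of summed TPM on day 16 without scaling: 0.04, 0.32, 0.15, 0.64 and 0.29 for complexes I to V, against 0.26, 0.54, 0.37, 0.86 and 0.51 with it. COX8A on days 0 and 6 was called in unscaled TPM (0.52 and 0.43) and on recovered reads (0.49 and 0.44). Depth limits COX4I2, COX6A2, COX6B2, COX7A1 and NDUFA4L2, with few reads a well; the cause of the changes was not tested.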

Other observations

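Ribosomal protein genes were read beside the members with the same fit. The 77 cytosolic ribosomal protein genes had a median log2 fold change, high minus low purity, of 0.43 on day 8 and -0.13 on day 16, and the 74 mitochondrial ribosomal protein genes 0.47 and 0.24. From day 6 to day 8 in the high purity differentiation the cytosolic set had a median change of 0.038, the mitochondrial set 0.28 and the members 0.72, with 94.0% of members above 0. In the low purity differentiation the medians were -0.22, -0.076 and 0.12.

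Within the complexes, partners did not always move alike. On day 16 SDHA, the flavoprotein of complex II, differed by 1.20 between the classes while SDHB differed by -0.09, SDHC by 0.10 and SDHD by 0.39, of which SDHA and SDHD were called. COX5B took between 21.4% and 40.7% of the summed TPM of complex IV across the multi-omic wells.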
